A study of Bombus terrestris audax with 20 samples.

Results

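The transcripts described here lie outside every annotated gene of the genome assembly Bter_1.0 of the buff-tailed bumble bee Bombus terrestris, but on its 18 placed linkage-group sequences. They were taken as the rows of the deposited expression table whose ID begins with uNC_, and 2348 of the 14817 rows (15.8%) met this rule. The ID gives each transcript's sequence, start and end in Bter_1.0, so that uNC_015771.1_3152030_3152362 runs from base 3152030 to base 3152362 of NC_015771.1. They were set against the 8760 annotated features that the table holds on the same sequences (IDs beginning with NC_). Of the transcripts, 1381 (58.8%) lay within 5 kb of such a feature and are called near, and the 967 farther away are called far.

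The study sequenced mRNA of whole female larvae of Bombus terrestris audax, with each library a pool of several larvae of 1 colony. Queen-destined larvae came from queenless colonies and worker-destined larvae from queenright colonies, so that larval caste and the state of the colony cannot be told apart in any comparison below. Early-instar larvae (first and second instars) are called EQ when queen-destined and EW when worker-destined, mid-instar larvae (the third instar) MQ and MW, and late-instar larvae (the fourth instar) LQ and LW. The table holds 17 libraries, 2 from MW larvae and 3 from each of the other 5 groups. The authors had left out libraries with too few reads and 1 that stood apart. Libraries that share a number within a caste came from the same colony, according to the study's supplementary list of samples. Because whole larvae were pooled, fewer cells of a type and less RNA per cell cannot be told apart in these values.

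As background, RNA from outside annotated genes can come from an end or an exon that a gene model lacks, from a mobile element, from a protein-coding gene missing from the annotation, or from a long RNA that encodes no protein. Female bumble bee larvae of both castes hatch from the same kind of fertilised egg, and their route to queen or worker is set during larval life, in which the queen's presence, feeding, juvenile hormone and moulting steroids all play a part. The table's values do not show strand, so that a transcript beside a gene may be a continuation of that gene or run against it.

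Values are the normalised abundances deposited by the authors, which were corrected for length and set to a common distribution across libraries. Depth behind single values is unknown, so precision could be judged only from how libraries of a group differed. Differences were tested with limma on log2(abundance + 20) of all 14817 features, and "called" means a Benjamini-Hochberg adjusted p under 0.05 over all features. For each feature, all groups shared an estimate of the spread between libraries. A caste difference is queen- minus worker-destined, and a stage step is the later minus the earlier stage. Adding 20 shrinks the differences of transcripts of low abundance. Over the unannotated transcripts, 16 of 17 libraries had their nearest library in their own stage, and 11 in their own group. The exception was LW1, whose nearest library was MQ1. LW1 also listed 7 of these transcripts at 0, against 47 to 74 in each of the other 5 late-instar libraries, and late-instar results are therefore given with and without it where it changed them.

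None of the 2348 transcripts overlapped an annotated feature of the table. Gaps were measured only to annotated features that the table holds. The authors had removed features of low abundance from it, so an annotated gene left out may lie closer to a transcript. The gap to the nearest annotated feature had a median of 3.28 kb and reached 235.2 kb, and 555 transcripts lay at up to 0.81 kb from one, 826 at 0.81 to 5 kb, 527 at 5 to 20 kb and 440 beyond 20 kb. The number of transcripts was 64 on NC_015778.1, the lowest of the 18 sequences, and 209 on NC_015768.1, the highest. Set against annotated features, there were 20.6 transcripts per 100 features on NC_015776.1 and 60.2 on NC_015779.1, the ends of the range. The transcripts were short, with a median length of 868 bp (200 to 15422 bp), whereas the annotated features, whose intervals include introns, had a median of 4214.5 bp. Near transcripts had a median of 1157 bp and far ones of 476 bp.

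Many of the transcripts lay beside one another. When transcripts up to 5 kb apart were joined, they formed 1392 runs, of which 908 held a single transcript, and 700 transcripts had the next one within 0.81 kb. The runs with the most transcripts held 16 in 54.2 kb and 15 in 13.0 kb, both on NC_015770.1. Whether transcripts of a run are pieces of 1 RNA was not tested, so counts of transcripts below are not counts of independent genes.

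The unannotated transcripts as a whole were less abundant in later larvae. The median over the transcripts averaged 88.3 ± 3.49 in EQ, 77.1 ± 2.87 in MQ and 70.9 ± 2.71 in LQ (SD, n = 3 each). In worker-destined larvae it averaged 85.4 ± 2.68 in EW (n = 3), 80.2 ± 1.96 in MW (n = 2) and 70.4 ± 2.80 in LW (n = 3). All 6 late-instar libraries lay below all 6 early-instar libraries, with 67.3 to 73.1 and 83.3 to 92.3. The annotated features did not share this order, and their library medians averaged 112, 120 and 126 in EQ, MQ and LQ, and 116, 114 and 123 in EW, MW and LW. Since the common distribution covers the whole table, a fall of 1 class of features goes with a rise of another, and only the difference between the classes is measured. The authors scaled abundances by transcript length, but the ID of an annotated feature gives its gene interval, and which length stood behind such a row was not checked here, so levels of the 2 classes are not compared.

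**Figure D1:**
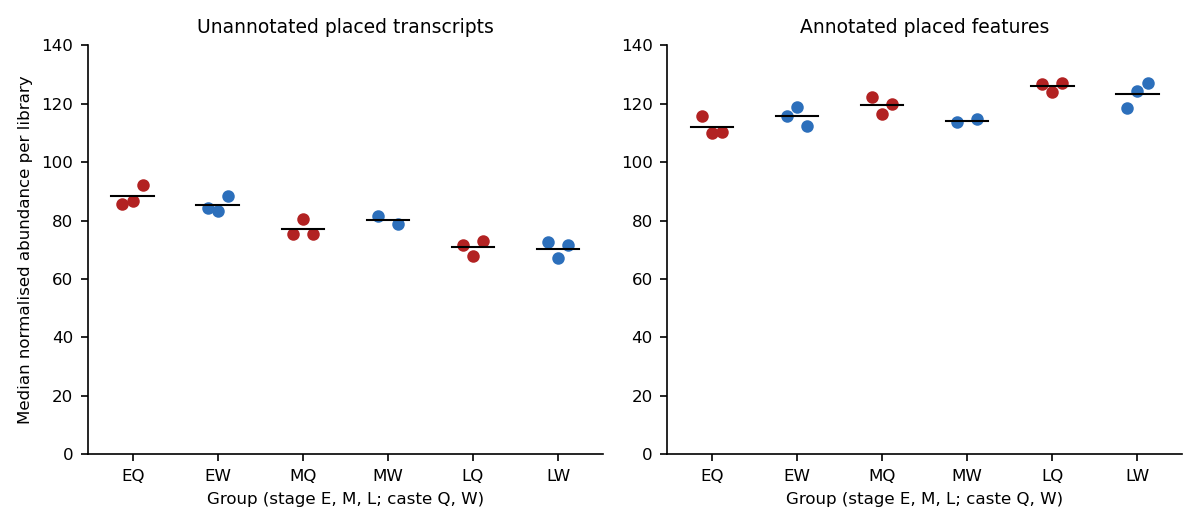
Median normalised abundance of the 2348 unannotated transcripts (left) and the 8760 annotated features (right) in each library, by stage on the horizontal axis, with red points for queen-destined and blue points for worker-destined libraries. On the left the late-instar libraries lie at 67.3 to 73.1, all below the early-instar libraries at 83.3 to 92.3.

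A few transcripts were very abundant. uNC_015773.1_8150633_8154113, 3481 bp long and 0.052 kb from an annotated feature, had the highest mean abundance over all libraries, 36462. It also had the largest called stage step, which is described with the stages below. uNC_015762.1_7855756_7858110, 2355 bp long and 38.3 kb from the nearest annotated feature, followed with a mean of 35785. It had 26959 to 36772 in LQ and 22332 to 33016 in LW, and was called in none of the caste or stage comparisons. The next 3 were uNC_015775.1_3458733_3459031 (mean 7908), uNC_015779.1_3289813_3290166 (5622) and uNC_015767.1_10378535_10378757 (5535), which were 299, 354 and 223 bp long and lay 5.50, 16.3 and 49.6 kb from the nearest annotated feature.

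The last of these belonged to a set of transcripts that varied alike over the 17 libraries. Where transcripts were linked at a Pearson correlation of log2 values of at least 0.98 over the 17 libraries, 183 transcripts had a partner, and the largest linked set held 35 transcripts from 35 different runs on 13 sequences. The set was chosen after its values were seen and is a description. Its members were 201 to 401 bp long (median 223 bp), had mean abundances of 1056 to 5535, and 27 of the 35 were far transcripts. uNC_015767.1_10378535_10378757 may stand for them, with 3156, 3703 and 2307 in LQ and 5655, 7294 and 5751 in MQ. In worker-destined larvae it had 4182, 4593 and 2811 in LW and 7859 and 7959.9 in MW. In both castes, every late-instar library of this transcript lay below every mid-instar library. Over the set, the median log2 step was -1.04 for LQ minus MQ and -1.06 for LW minus MW. In each step 32 of the 35 were called lower, when 18.6% and 10.6% of all features were. Since the set was linked by its values over all stages, its calls go together and are not separate results. The files hold no sequence of these transcripts, and reads that align at several places were kept by the authors, so whether these transcripts share reads was not tested.

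More of the transcripts fell than rose in all 4 stage steps. MQ minus EQ, LQ minus MQ and LW minus MW each called more transcripts than any caste comparison, and MW minus EW called fewer than the mid-instar one. For MQ minus EQ, 96 transcripts were called higher and 304 lower, when 10.2% of all features were called higher and 7.62% lower. As shares of the 2348 transcripts these were 4.09% and 12.9%, and among annotated features 1183 were called higher and 412 lower. For LQ minus MQ, 310 were called higher and 509 lower (20.5% and 18.6% of all features), against 2182 and 1567 annotated features. For MW minus EW, 37 were called higher and 72 lower (1.92% and 1.74% of all features), against 125 and 131. For LW minus MW, 164 were called higher and 415 lower (14.5% and 10.6% of all features), against 1655 and 684. The median log2 step of the transcripts was -0.12, -0.13, -0.08 and -0.18 in these 4 comparisons, and that of annotated features was 0.11, 0.03, -0.02 and 0.07.

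The share called lower was larger among near than among far transcripts in all 4 stage steps. It was 14.9% of near and 10.1% of far transcripts for MQ minus EQ, 23.8% and 18.6% for LQ minus MQ, 3.84% and 1.96% for MW minus EW, and 20.0% and 14.4% for LW minus MW. These shares were not tested against each other, because neighbouring transcripts are not independent. Near transcripts were also longer, and the share called lower was larger for long than for short transcripts. It was 8.15% under 500 bp and 17.0% at 2000 bp or more for MQ minus EQ, and 18.1% and 26.4% for LQ minus MQ. For MW minus EW it was 1.02% and 4.70%, and for LW minus MW 13.4% and 22.9%. The share called higher was also larger for long transcripts, at 1.66% and 5.52% for MQ minus EQ and 7.90% and 20.4% for LQ minus MQ. For MW minus EW this share was 0.764% and 2.45%, and for LW minus MW 4.20% and 8.59%. Short and long transcripts had median steps of -0.15 and -0.09, -0.16 and -0.08, -0.05 and -0.07, and -0.22 and -0.17 in this order. Median steps of near and far transcripts were -0.13 and -0.12, -0.15 and -0.08, -0.12 and -0.02, and -0.19 and -0.18 in the same order. Distance and length were not separated. Centring each library on the annotated features instead of the whole table, an alternative chosen after seeing the data, left the direction of the split among the transcripts. Among annotated features it narrowed the split for MQ minus EQ and LW minus MW and turned it for LQ minus MQ and MW minus EW. The counts were then 68 higher and 375 lower for MQ minus EQ (804 and 617 annotated), 277 and 582 for LQ minus MQ (1832 and 1997 annotated), 34 and 63 for MW minus EW (134 and 109 annotated), and 122 and 529 for LW minus MW (1249 and 1107 annotated). With the colony as a fixed term, which compares only stages of the same colony, MQ minus EQ gave 48 higher and 140 lower, and MW minus EW 47 and 48. With the colony as a random term the counts were 113 and 341 for MQ minus EQ and 53 and 102 for MW minus EW. Single libraries weighed on these counts: MQ minus EQ gave 63 higher without EQ1, 52 higher and 171 lower without EQ3, and 49 and 180 without MQ4. MW minus EW gave 21 higher without EW1, 21 and 44 without EW2, 17 and 20 without MW2, and 15 and 13 without MW3. LW minus MW gave 72 and 131 without MW2, 70 and 165 without MW3, 102 and 220 without LW3, and 204 and 517 without LW1. Where MW2 or MW3 is left out, the single MW library is assumed to vary like the other groups.

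**Figure D2:**
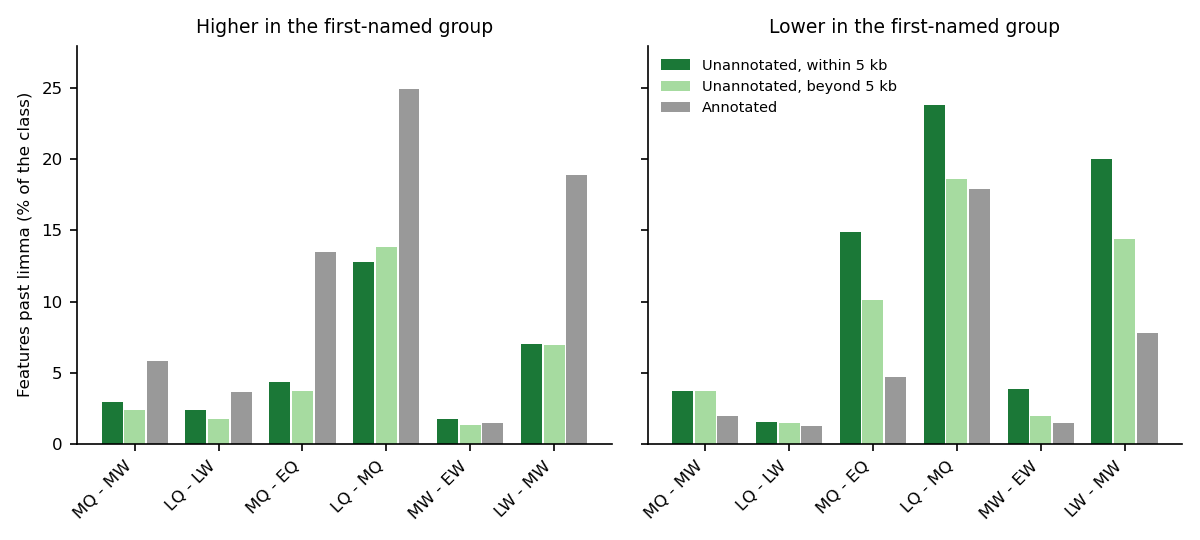
Percent of near transcripts, far transcripts and annotated features past limma's threshold (adjusted p under 0.05) in each caste and stage comparison, higher on the left panel and lower on the right. In all 4 stage steps the lower calls took a larger share of the near transcripts (3.84 to 23.8%) than of the far ones (1.96 to 18.6%).

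In queen-destined larvae 83 were called lower at both steps and 25 higher at both, while 39 were higher and then lower, and 36 lower and then higher. In worker-destined larvae 23 were called lower at both steps, 5 higher at both, 11 higher and then lower, and 2 lower and then higher. Over all features these counts were 284 lower at both steps, 414 higher at both, 348 higher and then lower, and 146 lower and then higher in queen-destined larvae, and 57, 48, 60 and 18 in the same order in worker-destined larvae. Both steps share the mid-instar libraries, so a mid-instar library that stands apart moves both.

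The largest rise belonged to uNC_015773.1_8150633_8154113. It had 678, 613 and 210.0 in EQ, 5827, 18678 and 3225 in MQ and 60111, 97539 and 71506 in LQ. In worker-destined larvae it had 610.3, 811 and 1048 in EW, 42070.2 and 26112 in MW and 60111, 120345 and 110353 in LW. The stages did not overlap in either caste. The log2 step was 3.92 (SE 0.57, adjusted p = 0.00076) for MQ minus EQ, 3.40 (SE 0.57, adjusted p = 0.000457) for LQ minus MQ and 5.33 (SE 0.63, adjusted p = 0.000455) for MW minus EW, and 1.48 (SE 0.63, adjusted p = 0.103) for LW minus MW. Its annotated neighbour NC_015773.1_8143393_8150581, 0.052 kb away, was called in none of these steps, with -0.77, 0.27, 0.52 and -0.39.

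Other transcripts were low until the fourth instar. uNC_015768.1_13531660_13533924 had 313, 363 and 349 in LQ and 10.2, 19.7 and 10.4 in MQ, and 307, 579.8 and 879 in LW and 15.3 and 16.6 in MW. Its log2 step was 3.45 (SE 0.25, adjusted p = 1.06e-06) in queen-destined and 3.96 (SE 0.28, adjusted p = 3.35e-06) in worker-destined larvae. uNC_015775.1_836628_838988 had 635, 672 and 483 in LQ and 71.3, 90.4 and 61.5 in MQ, a step of 2.71 (SE 0.23, adjusted p = 3.82e-06). Its nearest annotated feature, NC_015775.1_820400_821062 at 15.6 kb, moved in the same direction, by 3.57 (SE 0.32, adjusted p = 4.8e-06). uNC_015764.1_14162622_14162906 had 112, 139.8 and 135 in LW and was listed at 0 in both MW libraries, and it had 61.0, 38.1 and 40.7 in LQ against 0, 6.16 and 0 in MQ. It was called higher at both steps (adjusted p = 4.52e-07 for LW minus MW and 5.76e-06 for LQ minus MQ). uNC_015766.1_2260658_2260906 had 31.5, 138 and 314 in LW and was listed at 0 in both MW libraries (adjusted p = 0.00225), and LW1 was the lowest of the 3.

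A neighbouring pair on NC_015778.1 peaked in the third instar. uNC_015778.1_721735_725491, 3757 bp long, had 21.0, 13.4 and 18.4 in EQ, 461, 197 and 174 in MQ and 92.2, 94.0 and 53.3 in LQ. In worker-destined larvae it had 20.7, 22.6 and 38.4 in EW, 485 and 300.2 in MW and 84.5, 48.6 and 31.0 in LW. All 5 mid-instar libraries lay above the other 12. Its steps were 2.86 (SE 0.34, adjusted p = 0.00023) for MQ minus EQ, -1.48 (SE 0.34, adjusted p = 0.0041) for LQ minus MQ, 3.11 (SE 0.38, adjusted p = 0.000592) for MW minus EW and -2.49 (SE 0.38, adjusted p = 0.00097) for LW minus MW. uNC_015778.1_721381_721734, which ends 1 base before it, gave 2.75, 2.82 and -2.43 (adjusted p = 0.000137, 0.000544 and 0.000593). The annotated feature NC_015778.1_717588_719563, 1.82 kb away, moved alike, with 1.88, 2.31 and -2.37 (adjusted p = 0.00175, 0.00272 and 0.000808). Neither transcript was called between the castes at any stage.

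The largest falls to the fourth instar came from 3 adjoining pieces on NC_015773.1. uNC_015773.1_9049928_9052241 had 314, 227 and 280.0 in LQ and 2049, 2651 and 2779 in MQ, a step of -3.10 (SE 0.32, adjusted p = 1.31e-05). The pieces on either side, uNC_015773.1_9048209_9049904 and uNC_015773.1_9052259_9052919, gave steps of -3.01 (SE 0.29, adjusted p = 8.81e-06) and -3.01 (SE 0.31, adjusted p = 1.29e-05). In worker-destined larvae uNC_015773.1_9049928_9052241 had 953, 383 and 333 in LW and 2294 and 2436 in MW, and the highest LW value, from LW1, still lay below both MW values. The 3 pieces adjoin one another and are not independent. uNC_015767.1_2571587_2575813, 70.9 kb from the nearest annotated feature, had 2039, 569 and 292 in LW and 6244 and 3939 in MW, a step of -2.78 (SE 0.84, adjusted p = 0.0283). Its adjusted p was 0.17 without MW2, 0.084 without MW3, 0.0747 without LW2 and 0.112 without LW3.

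The largest falls to the third instar were less even over libraries. uNC_015776.1_1616398_1616971 had 6.17, 4.51 and 3.42 in MQ and 139, 53.2 and 261 in EQ, a step of -2.59 (SE 0.67, adjusted p = 0.0191), but its adjusted p was 0.0947 without EQ3, 0.0646 without MQ4 and 0.0756 with the colony as a fixed term, against 0.0141 with it as a random term. In the late instar it had 142, 0 and 0 in LW1, LW2 and LW3. The adjoining uNC_015771.1_72436_72694 and uNC_015771.1_72709_73164 gave -2.83 (SE 0.82, adjusted p = 0.031) and -2.41 (SE 0.75, adjusted p = 0.0414), and shared this spread, with 395, 96.7 and 505 and 233, 56.1 and 392 in EQ1, EQ2 and EQ3. With the colony as a fixed term their adjusted p was 0.111 and 0.204, and with it as a random term 0.0235 and 0.0373. Their calls were also lost without EQ1, EQ3, MQ2 or MQ4, with adjusted p of 0.0853, 0.129, 0.0677 and 0.104 for the first and 0.103, 0.178, 0.0796 and 0.155 for the second. They too had LW1 values (204 and 116) while both were listed at 0 in LW2 and LW3. Steadier falls were seen in worker-destined larvae, where uNC_015766.1_2453431_2459743 had 19.3 and 22.1 in MW and 94.0, 112 and 84.3 in EW, a step of -1.51 (SE 0.13, adjusted p = 0.000159). uNC_015776.1_1549923_1551833 had 101 and 83.6 in MW and 377, 253 and 306 in EW, a step of -1.55 (SE 0.24, adjusted p = 0.00366) that reached an adjusted p of 0.0571 without MW3. It lies 0.213 kb from a gene described as a sodium- and chloride-dependent glycine transporter 1-like gene, of a family that carries glycine into cells, and that gene's step was -0.51 (SE 0.12, adjusted p = 0.0281).

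**Figure D3:**
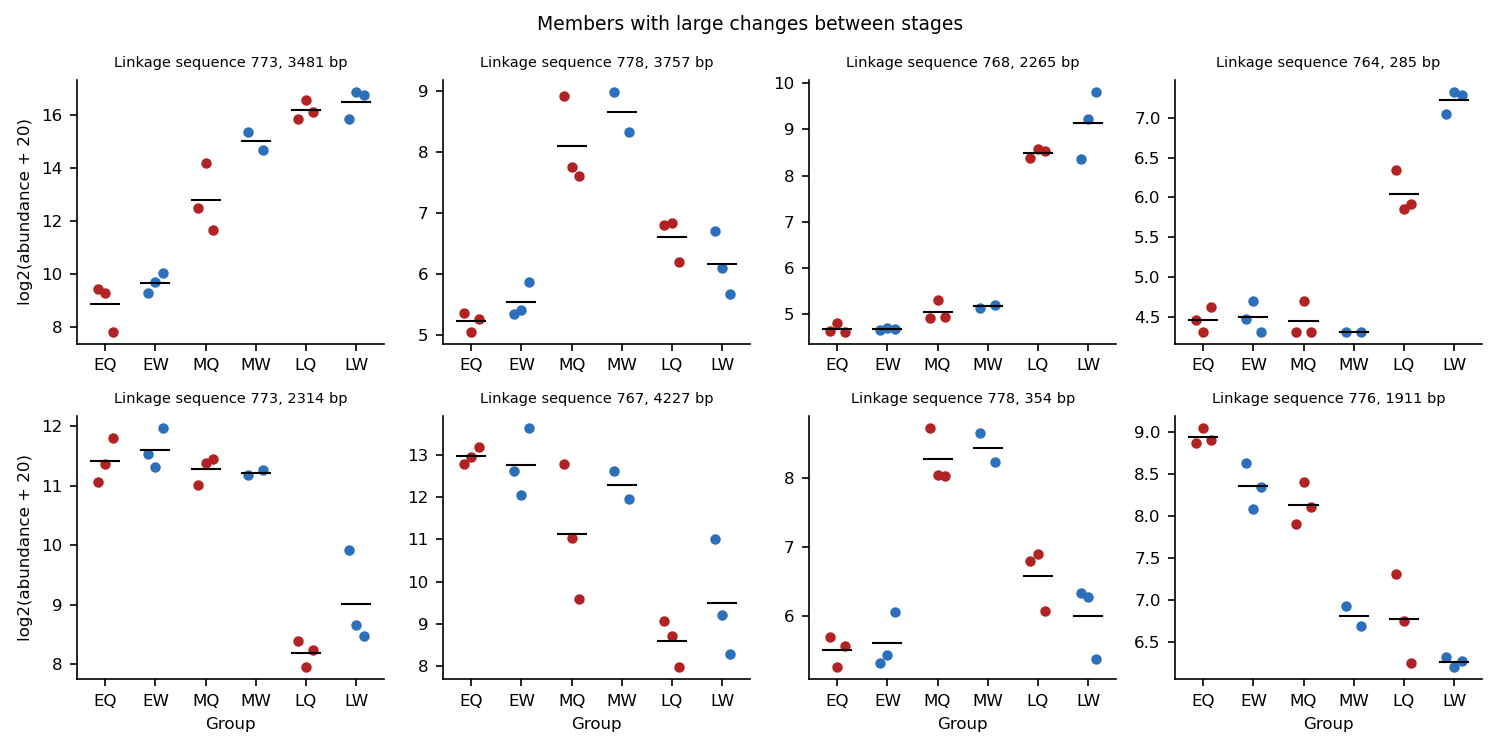
log2(normalised abundance + 20) of 8 transcripts by stage, 1 panel each headed by linkage sequence and length, with red points for queen-destined and blue points for worker-destined libraries. The 3481-bp transcript climbs over all 3 stages, the 3757-bp and 354-bp transcripts of NC_015778.1 peak in the mid instar, and the 2265-bp transcript is low until the late instar.

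In early-instar larvae no transcript was called between the castes by limma (0 higher and 0 lower in EQ), as for 0% and 0.00675% of all features. At an unadjusted p under 0.05, 98 transcripts were higher and 69 lower in EQ, and over all 14817 features 366 were higher and 422 lower. Ranges of the castes did not overlap for 185 transcripts that were higher in EQ and 131 that were higher in EW, when 5.51% and 9.02% of all features had such ranges. The smallest adjusted p belonged to uNC_015773.1_11869522_11871984, 2463 bp long, with 53.5, 46.8 and 34.0 in EQ and 24.3, 24.4 and 22.1 in EW, a log2 difference of 0.56 (SE 0.11, adjusted p = 0.236). The transcript uNC_015770.1_12249827_12250301 had 225, 120.5 and 340.1 in EQ and 55.9, 48.4 and 53.8 in EW, a log2 difference of 1.67 (SE 0.81, adjusted p = 0.88). Its ranges did not overlap, but the 3 EQ values were uneven, and at the late instar LW1 had 341 while the other 5 late-instar libraries had 4.33 to 14.9.

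In mid-instar larvae 64 transcripts were called higher and 87 lower in MQ than in MW, when 4.72% of all features were called higher and 3.31% lower. These were 2.73% and 3.71% of the transcripts, so that higher calls were fewer than in the table as a whole, and lower calls near its level. The annotated features split the other way, with 511 higher and 174 lower, or 356 and 227 after centring on the annotated features, which gave 45 and 89 for the transcripts. The split differed with abundance. Among the 694 transcripts with a mean of at least 200, 11 were called higher and 34 lower. Among the 419 with a mean under 20, 24 were higher and 14 lower. Annotated features gave 249 higher and 67 lower of 3251 in the first band, and 65 and 20 of 1474 in the second. Non-overlapping ranges were found for 341 transcripts higher in MQ and 531 higher in MW (25.1% and 17.4% of all features). Offset fold changes, which compare the lowest library of the higher caste with the highest library of the other on the log2 scale after adding 20, exceeded 1 for 9 transcripts higher in MQ and 5 higher in MW (0.391% and 0.634% of all features). The limma counts were 32 higher and 23 lower without MQ4 and 55 and 38 without MQ1, and the split turned in both. Without MQ2 they were 84 and 135. Without MW2 or MW3 a single MW library was left, and the excess of lower calls was not kept. The median log2 difference of the transcripts was then -0.06 and -0.07. When only the 5 mid-instar libraries were fitted, 3 of the 151 calls were kept. Of the 21 mid-instar calls of transcripts named by rule, only that of uNC_015771.1_3152030_3152362 was then kept (adjusted p = 0.0282), and the other 20 had adjusted p of 0.0695 to 0.208.

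The largest mid-instar difference was that of uNC_015771.1_3152030_3152362, 333 bp long. It had 321, 199 and 303 in MQ, and 2.38 and 0 in MW, a fitted log2 difference of 3.77 (SE 0.36, adjusted p = 0.000378) whose size depends on the offset, since MW was at or close to 0. At the late instar it had 58.2, 86.2 and 117 in LQ and 11.7, 0 and 0 in LW, and the difference was 2.16 (SE 0.32, adjusted p = 0.00243), whereas EQ and EW overlapped (26.5, 50.04 and 9.87 in EQ, 16.8, 7.32 and 0 in EW). It was 10.5 kb from NC_015771.1_3137226_3141484, the annotated feature with the largest mid-instar offset fold change (5.80), which had 12346, 22062 and 18556 in MQ and 202 and 27.8 in MW. A closer annotated feature, NC_015771.1_3153515_3159297 at 1.15 kb, had a difference of 0.88 (SE 0.18, adjusted p = 0.0133) at the mid instar and -0.92 (SE 0.16, adjusted p = 0.0069) at the late instar, where the transcript and this neighbour were called in opposite directions.

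Next came uNC_015770.1_3659628_3660348, with 366, 155 and 246 in MQ and 23.6 and 12.8 in MW, a log2 difference of 2.79 (SE 0.32, adjusted p = 0.000439). Its nearest annotated feature, 3.69 kb away and described as uncharacterized, was called in the same direction (0.62, adjusted p = 0.000378). uNC_015774.1_7481321_7481757 had 621, 1348 and 676 in MQ and 179 and 207 in MW (log2 difference 2.00, SE 0.40, adjusted p = 0.0117), with an adjusted p of 0.104 without MW2 and 0.0731 without MW3. uNC_015768.1_17011118_17014312 had 149, 292 and 195 in MQ and 32.6 and 51.4 in MW (log2 difference 1.87, SE 0.26, adjusted p = 0.00184). In these 3 transcripts the castes did not overlap, and none of the 3 was called at the early or the late instar.

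Among transcripts higher in worker-destined larvae, uNC_015764.1_6688167_6688610, 444 bp long and 11.4 kb from an annotated feature, had 32.5, 18.7 and 4.80 in MQ and 286 and 138 in MW (log2 difference -2.57, SE 0.36, adjusted p = 0.00187). At the late instar it had 9.24, 8.36 and 6.71 in LQ and 91.6, 74.3 and 72.5 in LW (log2 difference -1.82, SE 0.32, adjusted p = 0.0069). Together with uNC_015771.1_3152030_3152362 it was one of 2 transcripts with an offset fold change over 1 at both stages, 1.59 and 1.66 here and 3.29 and 1.30 there. uNC_015778.1_728331_730698 had 82.3, 137 and 72.5 in MQ and 385 and 325 in MW (log2 difference -1.71, SE 0.32, adjusted p = 0.00819), with an adjusted p of 0.0831 without MW2 and 0.0556 without MW3. uNC_015768.1_8146749_8148038 had 31.4, 5.56 and 2.60 in MQ and 76.3 and 165 in MW (log2 difference -2.11, SE 0.50, adjusted p = 0.0239). Its adjusted p was 0.0867 without MQ4, 0.0663 without MW2 and 0.195 without MW3. The most abundant transcript, uNC_015773.1_8150633_8154113, was also lower in MQ than in MW (log2 difference -2.23, SE 0.63, adjusted p = 0.0475), but that call was lost in 17 of the alternatives, among them leaving out any one of 14 libraries, with MW2 giving an adjusted p of 0.29 and MW3 0.131.

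In late-instar larvae 50 transcripts were called higher and 35 lower in LQ than in LW, when 3.21% of all features were called higher and 1.34% lower. As shares of the transcripts these were 2.13% and 1.49%, and annotated features gave 319 and 110. Without LW1 the counts were 36 and 30, and those of annotated features 174 and 128. When only the 6 late-instar libraries were fitted, 6 of the 85 calls were kept, and of the 11 late-instar calls of transcripts named by rule 4 were kept, those of uNC_015764.1_6688167_6688610, uNC_015771.1_9108635_9108849, uNC_015774.1_5145354_5146192 and uNC_015777.1_4620388_4620973. The other 7 had adjusted p of 0.0593 to 0.225. The counts were 24 higher and 12 lower without LQ1, 32 and 21 without LW2, and 23 lower without LQ4. Ranges did not overlap for 227 transcripts higher in LQ and 186 higher in LW (13.3% and 9.66% of all features), and the offset fold change exceeded 1 for 4 transcripts in each direction (0.27% and 0.0945% of all features). Calls at both the mid and the late instar were made for 12 transcripts higher and 5 lower in queen-destined larvae at both stages, and for 2 that were lower in MQ and higher in LQ. The same counts were not made over all features, so whether these are many or few for the table is not known.

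uNC_015778.1_482243_482837 had 199.7, 381 and 202 in LQ and 24.2, 75.7 and 13.4 in LW, a log2 difference of 2.37 (SE 0.42, adjusted p = 0.00744). uNC_015774.1_5145354_5146192 had 234, 282 and 309 in LQ and 50.4, 38.9 and 30.1 in LW (log2 difference 2.31, SE 0.30, adjusted p = 0.000926). This transcript was also higher in MQ, with 56.8, 167 and 109 against 34.9 and 25.8 in MW (log2 difference 1.29, SE 0.34, adjusted p = 0.0351), and at the early instar had 87.7, 152 and 130.4 in EQ and 78.3, 38.3 and 35.3 in EW, which did not overlap but were not called (adjusted p = 0.83). uNC_015777.1_4620388_4620973 had 131, 135 and 137 in LQ and 38.7, 39.0 and 38.4 in LW (log2 difference 1.40, SE 0.22, adjusted p = 0.00421), with little spread in either group. Its sequence was described in the study's supplement as matching fringe, a glycosyltransferase that modifies the Notch receptor in flies. uNC_015768.1_13519597_13520735 had 64.4, 65.3 and 63.2 in LQ and 6.88, 24.3 and 11.8 in LW (log2 difference 1.33, SE 0.13, adjusted p = 0.00011), and had at most 4.87 in the early- and mid-instar libraries.

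Of the transcripts lower in LQ, uNC_015771.1_9108635_9108849, 215 bp long, had 0 in LQ1, LQ2 and LQ4, where it is listed without signal, and 157, 249.5 and 307 in LW (adjusted p = 0.000428). It had been present in EQ (38.4, 139.7 and 67.3) and MQ (9.19, 16.5 and 24.0). uNC_015773.1_6836828_6837290 was likewise at 0 in each LQ library, with 175, 31.2 and 88.1 in LW, but its adjusted p of 0.0394 passed the threshold narrowly, and leaving out any one of 12 libraries ended the call, LW1 (0.122) and LQ1 (0.11) among them. uNC_015764.1_12810697_12811120 had 0, 13.3 and 10.8 in LQ and 51.6, 84.3 and 113 in LW (log2 difference -1.87, SE 0.30, adjusted p = 0.00448). uNC_015764.1_14162939_14163240 had 17.1, 30.8 and 19.8 in LQ and 45.6, 177 and 96.9 in LW (log2 difference -1.44, SE 0.29, adjusted p = 0.0141), with an adjusted p of 0.063 without LQ1. It lies beside uNC_015764.1_14162622_14162906, which was lower in LQ too (log2 difference -1.17, SE 0.15, adjusted p = 0.000712).

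**Figure D4:**
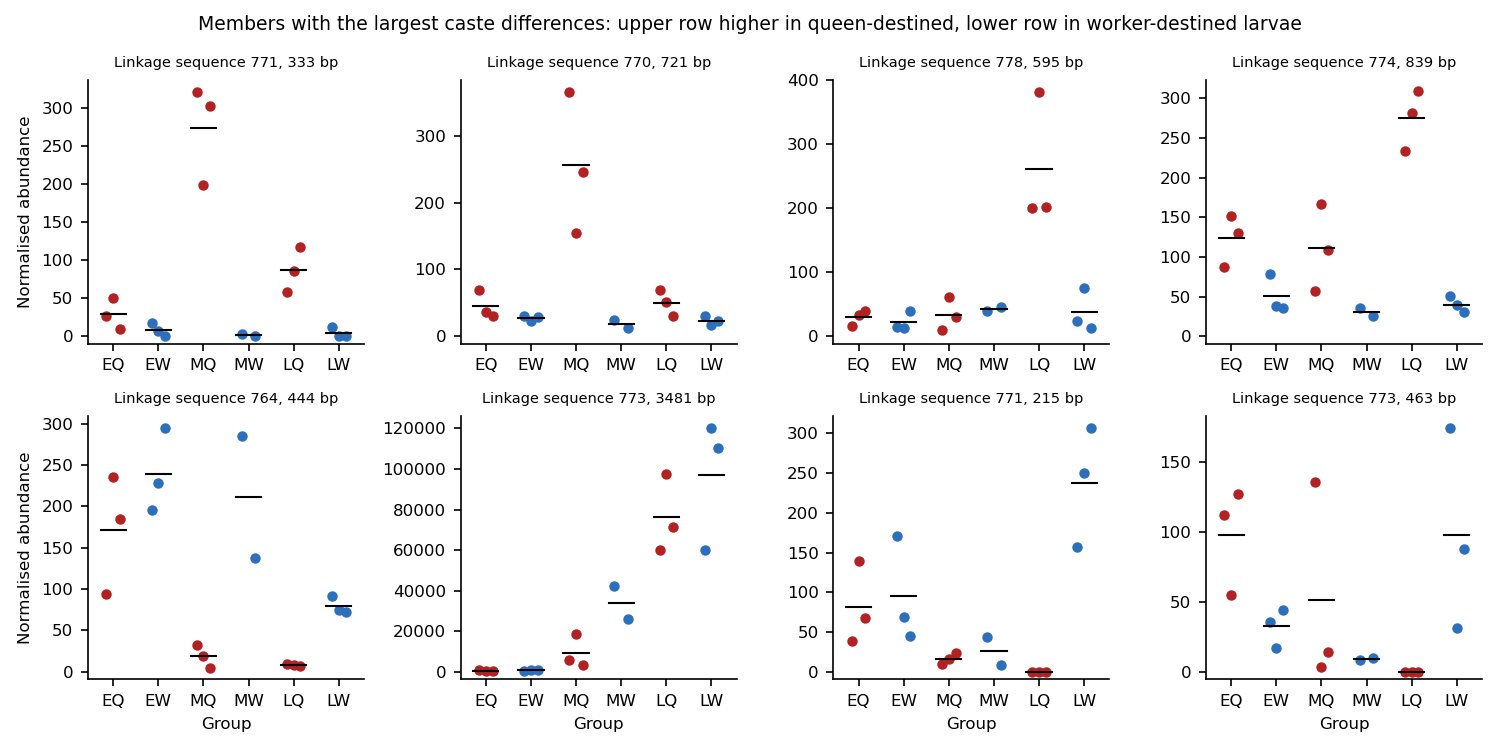
Normalised abundance of 8 transcripts with large caste differences, 1 panel each headed by linkage sequence and length, by stage, with red points for queen-destined libraries, blue points for worker-destined libraries and a black line for each group mean. The 333-bp transcript has 199 to 321 in MQ and at most 2.38 in MW, and the 215-bp transcript is listed at 0 in LQ and has 157 to 307 in LW.

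The caste difference itself changed between stages for few transcripts. From the early to the mid instar it became more positive for 7 and more negative for 2 transcripts (0.229% and 0.182% of all features), and from the mid to the late instar for 37 and 17 (1.42% and 1.05%). With any one library left out, the counts in both directions together ran from 0 to 67 for the first change and from 5 to 139 for the second. For the first they were 5 without EQ2, 0 without each of EQ3, EW1 and EW2, 16 without EW3, 67 without MQ2, 3 without MQ4, 2 without MW2, 1 without MW3 and 19 without LW1. For the second they were 28 without EW1, 27 without EW2, 139 without MQ2, 23 without MQ4, 10 without MW2, 5 without MW3, 22 without LQ1, 34 without LQ4 and 33 without LW2. For uNC_015768.1_8146749_8148038 the sign of the difference turned. It was -2.11 at the mid instar and 1.46 (adjusted p = 0.0808) at the late instar, where it had 99.7, 36.6 and 86.7 in LQ and 12.7, 11.8 and 13.6 in LW, and the change was 3.56 (SE 0.67, adjusted p = 0.0177), with an adjusted p of 0.0919 without MW3. Its nearest annotated feature, NC_015768.1_8132914_8144212 at 2.54 kb, followed the same course, with -1.32 (adjusted p = 0.0591) and then 1.62 (adjusted p = 0.022). uNC_015764.1_11089645_11090729 had at most 3.84 in the early-instar libraries, 34.1, 50.1 and 68.5 in MQ against 5.49 and 3.04 in MW, and 55.6, 48.9 and 63.4 in LQ against 16.0, 25.8 and 11.9 in LW. Its difference changed by 1.62 (SE 0.23, adjusted p = 0.0198) between the early and the mid instar, and its adjusted p was 0.058 without EQ3, 0.0578 without EW1, 0.0572 without EW2 and 0.0672 without MW3.

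Log2 changes of transcripts close to an annotated feature correlated more with those of that feature than did changes of transcripts farther away. Within 0.81 kb, the Pearson correlation of log2 differences between transcript and nearest annotated feature was 0.33 over 555 pairs at the mid instar, and at 0.81 to 5 kb it was 0.20 (826 pairs), at 5 to 20 kb 0.00364 (527 pairs) and beyond 20 kb 0.000659 (440 pairs). For LQ minus MQ it was 0.44, 0.31, 0.14 and 0.10 in the same order. These correlations are across transcripts, which are not independent, since several transcripts can share a neighbour and all share the libraries. Among transcripts called between MQ and MW, 28 of 34 within 0.81 kb had the sign of their neighbour, as did 27 of 58 at 0.81 to 5 kb, 22 of 34 at 5 to 20 kb and 10 of 25 beyond 20 kb. Among those called between LQ and LW these counts were 15 of 16, 25 of 38, 14 of 19 and 7 of 12. For LW minus MW they were 97 of 147, 119 of 226, 84 of 121 and 41 of 85. The share did not fall steadily with distance in these comparisons, but did in the other stage steps. The neighbour was itself called in the same direction for 12 of the 34 closest transcripts at the mid instar, and in the opposite direction for none.

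**Figure D5:**
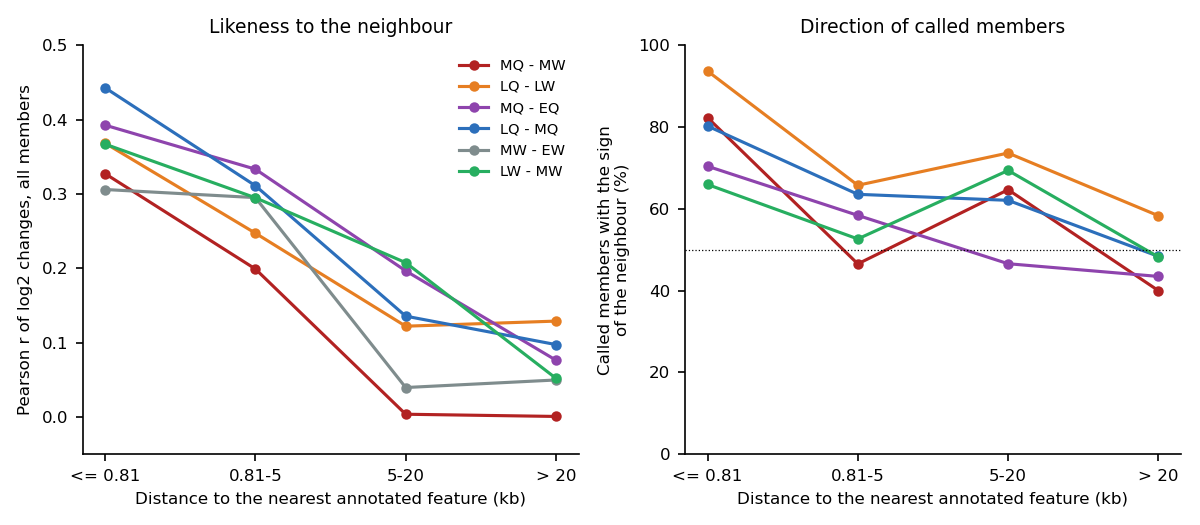
Left, Pearson correlation of the log2 changes of unannotated transcripts and their nearest annotated feature by distance in kb, 1 line per comparison. Right, percent of called transcripts with the sign of that neighbour, where the mid-instar caste comparison has 82.4% within 0.81 kb and 40% beyond 20 kb. MW minus EW is not drawn on the right, and the early-instar caste comparison is not drawn.

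The region of kruppel homolog 1 (Kr-h1), a transcription factor gene that juvenile hormone induces in insects, was chosen as an example after its values were seen. It is not typical, since at 0.81 to 5 kb 27 of 58 called transcripts had their neighbour's sign at the mid instar. Kr-h1 (NC_015765.1_2490563_2492637) had 684, 596 and 629.5 in MQ and 203 and 199.7 in MW (log2 difference 1.56, SE 0.16, adjusted p = 0.000378). Within 5 kb lay 4 unannotated transcripts. uNC_015765.1_2495099_2495655, 2.46 kb upstream and described as matching a Krueppel homolog 1-like transcript of Bombus impatiens, had 222, 167 and 184 in MQ and 42.0 and 58.3 in MW (log2 difference 1.59, SE 0.31, adjusted p = 0.0102), with an adjusted p of 0.109 without MW2 and 0.0577 without MW3. uNC_015765.1_2486623_2487371, 3.19 kb downstream, had 589, 538 and 548 in MQ and 201 and 184 in MW (log2 difference 1.45, SE 0.25, adjusted p = 0.00629). The remaining uNC_015765.1_2493278_2494617 and uNC_015765.1_2496149_2497270 gave 0.63 (SE 0.16, adjusted p = 0.0346) and 0.23 (SE 0.20, adjusted p = 0.499). For LQ minus MQ all 4 were called lower, with steps of -1.44, -2.08, -0.78 and -0.78, and Kr-h1 gave -1.16.

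A second such place was uNC_015772.1_16036258_16037622, 0.737 kb upstream of a gene described as estradiol 17-beta-dehydrogenase 11, an enzyme family that acts on steroids and lipids. The study took 0.81 kb as its limit for joining an unannotated transcript to a gene that changed alike. By this limit it left the transcript out of its list of strong mid-instar differences. The transcript had 76.0, 85.8 and 105 in MQ and 13.1 and 21.8 in MW (log2 difference 1.54, SE 0.16, adjusted p = 0.000378), and 28.5, 35.2 and 47.5 in LQ and 18.8, 16.5 and 13.6 in LW (log2 difference 0.64, SE 0.14, adjusted p = 0.0238). The castes overlapped at the early instar. The gene itself gave 1.41 (SE 0.36, adjusted p = 0.0334) at the mid instar and 0.70 (SE 0.33, adjusted p = 0.231) at the late instar.

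The part of the study's supplement read here describes 206 of the transcripts by sequence match, and 128 of these had a match and 78 none. These 206 stand at the top of the study's ranking of features by EQ relative to EW on these same libraries, so their early-instar direction was set by that choice and their other values are no independent evidence. Of the 206, 20 were called higher and 6 lower in MQ (4.72% and 3.31% of all features), and 10 higher and 54 lower for MQ minus EQ (10.2% and 7.62% of all features). Matches to nuclear receptors and other hormone response genes were found for 3 transcripts, of which 2 were called higher in MQ, when 4.72% of all features were: the Krueppel homolog 1 match above and uNC_015762.1_12745566_12751343. The second of these, described as matching the nuclear hormone receptor HR3, which takes part in the moulting steroid cascade of insects, had 56.1, 53.5 and 96.9 in MQ and 22.7 and 30.2 in MW (log2 difference 0.91, SE 0.23, adjusted p = 0.0329), with an adjusted p of 0.112 without MQ4, 0.231 without MW2 and 0.106 without MW3. Its LQ minus MQ step was -1.40 (SE 0.21, adjusted p = 0.000202). The third, uNC_015770.1_13583462_13584221, matched ultraspiracle, the partner of the ecdysone receptor, and rose for LQ minus MQ by 1.31 (SE 0.11, adjusted p = 2.63e-06) and for LW minus MW by 1.02 (SE 0.12, adjusted p = 0.000184), with 776, 677 and 742 in LQ and 548, 489.9 and 672 in LW.

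Matches to patterning genes and transcription regulators numbered 23, of which 2 were called higher in MQ, when 4.72% of all features were. For LQ minus MQ 12 were called lower, when 18.6% of all features, 509 of the 2348 transcripts and 64 of the 206 described transcripts were. uNC_015772.1_13985874_13987881, described as matching the LIM-homeobox gene Awh, a regulator of imaginal tissue in flies, had 40.7, 43.5 and 48.0 in MQ and 11.1 and 14.5 in MW (log2 difference 0.97, SE 0.10, adjusted p = 0.000378), and its neighbour 0.146 kb away was called in the same direction by 0.26 (SE 0.05, adjusted p = 0.00728). The other, uNC_015770.1_2458457_2459453, matched the zinc finger gene Elbow (log2 difference 0.72, SE 0.12, adjusted p = 0.00565), with an adjusted p of 0.0716 without MW2. In all, 7 transcripts on 6 sequences were described as matching Elbow, a group chosen after its values were seen. Their LQ minus MQ steps ran from -0.72 to -0.35 and 6 of the 7 were called lower. These 6 are among the 12 lower calls of the list, so a single description stands behind 6 of the 12. Whether the Elbow matches share reads was not tested. uNC_015772.1_11490140_11491178, which matched apterous, a LIM-homeobox gene of wing development in flies, went the other way with 179, 182 and 227 in LQ and 58.8, 45.3 and 59.3 in MQ (log2 step 1.54, SE 0.18, adjusted p = 3.17e-05).

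Mobile elements, DNA that copies or moves itself within genomes, were matched by 10 transcripts, of which 3 were called lower and none higher in MQ, when 3.31% and 4.72% of all features were. All 3 matched jockey, a retrotransposon. uNC_015762.1_14494365_14494634, 270 bp long, had 411, 652 and 306 in MQ and 1540.0 and 1229 in MW (log2 difference -1.62, SE 0.29, adjusted p = 0.00673), with an adjusted p of 0.08 without MW2. uNC_015765.1_10_3249 had 428, 638 and 442 in MQ and 1042 and 922 in MW (log2 difference -0.96, SE 0.21, adjusted p = 0.017), and uNC_015777.1_4053026_4054969 gave -0.80 (SE 0.23, adjusted p = 0.0476). The last call was lost when any one of 14 libraries was left out and with centring on the annotated features (adjusted p = 0.052). The adjusted p of these transcripts without MW3 was 0.0418, 0.0802 and 0.17. The second of them was also lost without MQ1 (0.0512), MQ4 (0.0657) or MW2 (0.146). Of all 7 jockey matches, on 6 sequences, 6 had a negative mid-instar difference, from -1.62 upward, and the median was -0.96, whereas all 7 had positive differences at the early instar (median 0.28), which the ranking behind the list favours. Copies of an element share sequence, so these 7 are not independent.

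The other lists held few calls. None of 6 matches to RNA-binding and translation control genes, 1 of 8 to vesicle and Golgi genes, 1 of 6 to extracellular matrix and cuticle genes and none of 3 to channels and transporters were called higher in MQ, and none was called lower, when 4.72% and 3.31% of all features were. For LQ minus MQ the same lists had 3 higher and 1 lower, 0 and 4, 3 and 2, and 0 and 1, when 20.5% and 18.6% of all features were. uNC_015775.1_690996_698566, the vesicle and Golgi one, matched a cysteine string protein-like gene and had 78.2, 76.3 and 91.7 in MQ and 33.3 and 39.0 in MW (log2 difference 0.86, SE 0.19, adjusted p = 0.0188). uNC_015765.1_7551515_7551733, the matrix one, matched testican-3 and had 168, 129 and 139 in MQ and 91.1 and 73.4 in MW (log2 difference 0.69, SE 0.15, adjusted p = 0.018). Without MW2 their adjusted p was 0.156 and 0.0626, and without MW3 0.0875 and 0.156, and it was 0.0705 for the first without MQ4 and 0.0561 for the second without MQ1. uNC_015779.1_3425923_3426395, matched to 28S ribosomal RNA, had 4692, 2307 and 2549 in LQ and 747, 1449 and 2287 in LW, which did not overlap, and was called in no comparison.

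The run with the most transcripts, 16 on NC_015770.1 from base 7677466 to base 7731691, lay at least 7.81 kb from any annotated feature of the table. For LQ minus MQ 6 of its transcripts were called higher and 1 lower, when 20.5% and 18.6% of all features were, and for MQ minus EQ 5 higher and none lower, when 10.2% and 7.62% of all features were. At the mid instar 12 of the 16 had positive differences and 3 were called higher in MQ, when 4.72% of all features were. uNC_015770.1_7721009_7721730 had 115, 98.9 and 177 in MQ and 36.6 and 54.0 in MW (log2 difference 1.18, SE 0.23, adjusted p = 0.0106), with an adjusted p of 0.125 without MW2. The other two, uNC_015770.1_7727555_7729506 and uNC_015770.1_7729549_7730578, gave 0.59 (SE 0.17, adjusted p = 0.0474) and 0.77 (SE 0.22, adjusted p = 0.045), and leaving out any one of 14 and 11 libraries ended these calls, MW3 among them (0.21 and 0.0965).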

How the data were processed

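Messenger RNA of pooled whole larvae was sequenced, and the 17 libraries that the authors kept were used here. The authors reduced each library to the size of the smallest, matched reads to annotated features and to Bter_1.0 with PatMaN at up to 1 mismatch, kept reads with several matches, joined overlapping reads outside annotated features into transcripts, kept those of at least 200 bp that passed an abundance minimum, then applied a length correction and quantile normalisation. The deposited values are this normalised signal, not counts, and the strand and the depth behind each value are not known. PatMaN does not place reads across introns.

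In R 4.3.3, limma 3.58.1 (group means, empirical Bayes with an intensity trend, 11 residual degrees of freedom) was fitted to log2(signal + 20) of all 14817 features, with no filter on low values and Benjamini-Hochberg adjustment at 0.05, and was tested on simulated data with 200 changed features. An adjusted p in the report is that of limma. Tables were made with Python 3.11.15, numpy 2.4.6, pandas 2.3.3 and scipy 1.17.1. Group membership came from the sample labels. P-values rest on an estimate of spread per feature that all 6 groups share, so they do not measure the spread of the compared groups alone. Libraries of a group came from different colonies.

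Named transcripts were the 5 with the largest called and non-overlapping caste differences per stage and direction (the 3 with the smallest p where fewer than 3 passed). Also named were the 3 largest called steps and the 3 clearest changes of the caste difference per direction. Further ones were those past an offset fold change of 1 at more than 1 stage and the 5 most abundant. Up to 4 of the run with the most transcripts, up to 3 per list and those the study's text names were added. The transcripts and lists were chosen with earlier results of these data known. Sequence descriptions were read from the part of the study's supplement at hand, and gene names of neighbours from the same source, of which 142 of 150 symbols are in the RefSeq table of assembly iyBomTerr1.2, whose coordinates were not used. No transcript sequence is shown because no genome of build Bter_1.0 was at hand.

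Same-numbered libraries of a caste share a colony according to the list of samples in the study's supplement, so stage steps were also fitted with the colony as a fixed and, alternatively, a random term. Deviations from group means correlated at 0.21 to 0.49 for such pairs of queen-destined libraries and at -0.24 to 0.32 for worker-destined ones. Between castes the numbers share no colony, and same-numbered pairs of a stage correlated at -0.06 to 0.36, which overlaps these ranges.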

Additional observations from a re-analysis of the deposited data

Results flagged for a closer look

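For 28 changes of the caste difference between stages, in transcripts named by the rules above, a test of the change itself (limma's interaction term, adjusted p under 0.05) flagged the result. Values are on the log2 scale, queen- minus worker-destined, later minus earlier stage, and no cause was tested.

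Between the early and the mid instar the difference became more positive for uNC_015771.1_3152030_3152362 (by 3.01), uNC_015770.1_3659628_3660348 (2.35), uNC_015764.1_11089645_11090729 (1.62), uNC_015772.1_16036258_16037622 (1.52), uNC_015764.1_8677570_8678513 (1.25) and uNC_015772.1_13985874_13987881 (0.80). It became more negative for uNC_015775.1_4743169_4743470 (-1.80), which had 149, 129 and 114 in MQ and 302 and 279 in MW but 225, 329.6 and 300.5 in EQ and 138, 164 and 178 in EW, and for uNC_015764.1_5737911_5739552 (-0.77).

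Between the mid and the late instar both of these turned back, by 1.25 and 0.61, and uNC_015775.1_4745496_4746341, which lies beside the first, changed by 1.30. Of those higher in MQ, uNC_015770.1_3659628_3660348 (-2.11), uNC_015764.1_8677570_8678513 (-1.31) and uNC_015772.1_16036258_16037622 (-0.90) lost part or all of their difference. uNC_015764.1_8677570_8678513 had 30.5, 24.4 and 46.1 in MQ and 1.03 and 0 in MW, and 0, 2.60 and 3.53 in LQ and 0.972, 2.49 and 0 in LW. The change was also positive for uNC_015768.1_8146749_8148038 (3.56), uNC_015778.1_482243_482837 (2.70), uNC_015777.1_4620388_4620973 (1.87), uNC_015768.1_4091797_4092189 (1.55), uNC_015768.1_13519597_13520735 (1.34), uNC_015764.1_1068586_1069427 (1.21), uNC_015765.1_10_3249 (1.17) and uNC_015769.1_2387496_2390808 (0.69).

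It was negative for uNC_015775.1_690996_698566 (-1.25), uNC_015765.1_7551515_7551733 (-0.85) and uNC_015773.1_11869522_11871984 (-0.72), and for 3 transcripts with a group listed at 0, whose fitted values depend on the offset of 20: uNC_015771.1_9108635_9108849 (-3.39), uNC_015764.1_14162622_14162906 (-1.30) and uNC_015762.1_10243135_10243549 (-0.97).

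Leaving out 1 library ended most of these calls. Of the 20 changes between the mid and the late instar, 18 were lost without MW3, 14 without MW2, 11 without MQ4 and 9 without LQ1, and those of uNC_015764.1_8677570_8678513 and uNC_015768.1_13519597_13520735 were kept whichever library was left out. Of the 8 changes between the early and the mid instar, all 8 were lost without each of EQ3, EW1 and EW2, 7 without MW3, 6 without MW2 and 5 without MQ4, and none was kept whichever library was left out. With the colony as a fixed term 11 of the 20 and 6 of the 8 were lost, and with an offset of 1 in place of 20, 8 and 5. With the colony as a random term none was lost.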

How the results depend on the processing

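No named result reversed. Over the named transcripts and the alternatives, 2219 results kept their side of the threshold, 217 lost it and 31 gained it. A fit on the libraries of 1 stage alone left few caste calls: 2 higher and 1 lower at the mid instar and 3 and 3 at the late instar. Library weights gave the opposite, with 5 higher and 1 lower early, 137 and 203 mid, 193 and 146 late, and 134 and 247 for MW minus EW, 312 and 765 for LW minus MW. Testing features with a mean of at least 100 alone, and so fewer transcripts, gave 21 higher and 50 lower at the mid instar, 5 and 7 at the late instar, 27 and 139 for MQ minus EQ, 108 and 294 for LQ minus MQ, 20 and 14 for MW minus EW, and 45 higher for LW minus MW. An offset of 1 gave 33 higher and 39 lower at the late instar, where the split turned. For MW minus EW it gave 37 and 38, so the excess of lower calls nearly vanished. Changes of the caste difference between the early and the mid instar numbered 3 with an offset of 1, 1 with a mean of at least 100, 19 with the colony as a random block and 216 with library weights, and between the mid and the late instar 32, 16, 98 and 231 in that order. Near transcripts were 23.6% at a limit of 0.81 kb and 81.3% at 20 kb. For these changes the cause was not tested.

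With the replicate block (the number for castes, the colony as a fixed term for steps), castes gave 29 higher and 34 lower at the mid instar and 42 and 24 at the late instar, stage steps 48 and 140 for MQ minus EQ, 333 and 557 for LQ minus MQ, 47 and 48 for MW minus EW and 190 and 501 for LW minus MW, and changes of the caste difference 3 and 17. Between castes the number pairs different colonies.

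Leaving out each library in turn gave 0 to 0 calls early, 12 to 84 higher and 12 to 135 lower at the mid instar, 24 to 71 and 12 to 39 at the late instar, 49 to 111 and 171 to 354 for MQ minus EQ, 254 to 328 and 428 to 533 for LQ minus MQ, 15 to 49 and 13 to 95 for MW minus EW, 70 to 204 and 131 to 517 for LW minus MW, and 0 to 67 and 5 to 139 changes of the caste difference. Non-overlapping ranges, which smaller groups reach more easily, then numbered 260 to 409 higher in EQ and 195 to 389 higher in EW, 427 to 560 higher in MQ and 644 to 852 higher in MW, and 294 to 437 higher in LQ and 279 to 352 higher in LW. Centring on the annotated features, added after seeing the data, is given beside the counts it moved. Only 2 MW libraries, and pools from few colonies, limit every comparison that uses them, and the absence of counts leaves the precision of low values unknown.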
